A study of Mus musculus with 25 samples.

Results

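The 10 genes described here encode 9 apolipoproteins (Apoa1, Apoa2, Apoa4, Apoa5, Apob, Apoc1, Apoc2, Apoc3 and Apoe) and the microsomal triglyceride transfer protein (Mttp). They were chosen by symbol from a table of 24537 genes, and all 10 were found and passed the filter on low counts that left 14133 genes for testing. The counts come from polyA RNA of livers from male C57BL6/J mice aged 24 months. Every group carried a knockout, labelled either as p53 (p53KO) or as Rosa26, a locus often used as a neutral target (Rosa26KO). The 4 groups were Control_Rosa26KO (Rosa26KO, control diet, n = 6), HFD_Rosa26KO (Rosa26KO, high-fat diet or HFD, n = 6), Control_p53KO (p53KO, control diet, n = 6) and HFD_p53KO (p53KO, HFD, n = 7). The labels state neither how the knockouts were made, nor in which cells, nor how long the diet was given.

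Apolipoproteins are the protein coats of the particles that carry lipid in blood. In the hepatocyte, Mttp loads triglyceride onto newly made apolipoprotein B, and the nascent particle is enlarged and secreted as very low density lipoprotein (VLDL). The smaller apolipoproteins exchange between particles, where they steer lipolysis, receptor uptake and the formation of high density lipoprotein (HDL).

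Total counts per library ran from 16324283 to 21501281. Levels are in CPM, counts relative to the library total with TMM scaling. Trp53, the gene encoding p53, ran from 30.6 to 43.8 CPM over the Rosa26KO libraries and from 17.2 to 35.6 CPM over those labelled p53KO. Control_p53KO 3 (35.6 CPM), the highest of these, and HFD_p53KO 7 (31.05 CPM), the highest of its group, lay within the Rosa26KO range. Mean Trp53 was 36.8 CPM in Control_Rosa26KO and 37.1 CPM in HFD_Rosa26KO, against 24.1 CPM in Control_p53KO and 26.0 CPM in HFD_p53KO. How the knockout was made, and in which cells, is not stated, so the reads that remain cannot settle the label of a single library. Control_p53KO 1 and HFD_Rosa26KO 6 stood apart in summed neutrophil markers (580 and 374 CPM, against group medians of 6.74 to 18.7 CPM). Control_p53KO 3 stood apart in macrophage and Kupffer cell markers (3618 CPM, against group medians of 821 to 1193 CPM). Control_p53KO 1 (50427 CPM), Control_Rosa26KO 1 (33696 CPM) and HFD_p53KO 2 (25820 CPM) were the highest in acute phase genes, whose group medians were 4112 to 6659 CPM. Of 8 listed hepatocyte markers 7 were in the table, and none of these was below 1 CPM throughout.

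Of the 10 genes, 7 lie in a pair of gene clusters. On chromosome 9 (GRCm38, GENCODE M21) Apoa1 (chr9:46228580-46230466, plus strand), Apoc3 (chr9:46232933-46235636, minus strand), Apoa4 (chr9:46240696-46243459, plus strand) and Apoa5 (chr9:46268633-46271919, plus strand) share 43.3 kb. On chromosome 7 Apoe (chr7:19696109-19699188), Apoc1 (chr7:19689481-19692660) and Apoc2 (chr7:19671579-19677941) lie on the minus strand within 27.6 kb, with Apoc4 between Apoc1 and Apoc2. Apoa2 is on chromosome 1 (chr1:171225054-171226379, plus strand), Apob on chromosome 12 (chr12:7977648-8016835, plus strand) and Mttp on chromosome 3 (chr3:138089854-138144968, minus strand). Exons of Apoa4 (1815 bases) overlap 2 antisense genes, by 1266 bases summed over these genes. Exons of Apoc2 overlap a same-strand gene (Gm44805) over 646 of 813 bases. Exons of Apoa5 overlap 1 antisense gene over 524 bases, and those of Mttp overlap 2, by a summed 589 bases. A base shared with both neighbours would be counted for each in these sums. Of the overlapping genes only Trmt10a, which overlaps Mttp, is in the count table. The strand of counting is not given in the sources used here, so reads of these neighbours cannot be told apart from those of the named genes.

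Promoters are shown for the 3 genes that passed the test of HFD against control diet averaged over both genotypes. The reason is that neighbours on chromosome 9, Apoa1 and Apoa4, moved in opposite directions. Each sequence covers 250 bases before to 50 bases after the RefSeq start site on GRCm38.p6, written 5′ to 3′ on the gene's strand. Capitals mark matches, on either strand, to any of 6 searched motifs: CAAAGNNCA (similar to sites of HNF4A, a hepatocyte nuclear receptor), AGGTCA (a core motif of nuclear receptors), the TATA box motif TATAAA, the E-box motif CACGTG, the forkhead motif GTAAACA and the CRE core motif TGACGT.
Apoa4 (chr9:46240594-46240893, plus strand): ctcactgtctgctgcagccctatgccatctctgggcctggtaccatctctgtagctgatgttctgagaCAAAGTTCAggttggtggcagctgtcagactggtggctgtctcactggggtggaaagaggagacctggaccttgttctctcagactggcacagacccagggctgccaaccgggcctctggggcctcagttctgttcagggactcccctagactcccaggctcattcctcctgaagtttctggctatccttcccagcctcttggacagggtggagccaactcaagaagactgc
Apoa1 (chr9:46228380-46228679, plus strand): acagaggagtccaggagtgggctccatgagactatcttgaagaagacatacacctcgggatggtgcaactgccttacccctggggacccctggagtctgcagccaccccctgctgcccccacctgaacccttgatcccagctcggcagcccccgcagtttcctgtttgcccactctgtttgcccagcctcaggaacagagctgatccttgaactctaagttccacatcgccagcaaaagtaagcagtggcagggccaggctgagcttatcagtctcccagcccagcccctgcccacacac
Apoc2 (chr7:19677892-19678191, minus strand): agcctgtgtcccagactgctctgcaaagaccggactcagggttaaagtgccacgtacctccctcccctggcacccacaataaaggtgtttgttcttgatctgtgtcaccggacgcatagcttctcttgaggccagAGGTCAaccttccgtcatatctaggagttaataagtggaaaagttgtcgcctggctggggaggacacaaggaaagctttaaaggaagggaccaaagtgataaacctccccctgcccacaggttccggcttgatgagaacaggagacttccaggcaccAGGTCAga

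The Apoa4 window held CAAAGTTCA, starting 182 bases before the RefSeq start site. Of the 32851 promoters of the same length, 6.36% held that motif. The GENCODE starts of Apoa4 (46240696) and Apoa1 (46228580) lie upstream of the RefSeq starts, inside these windows. Part of each of these windows is therefore within the gene as mapped by GENCODE. The Apoa4 motif lies before either start and nearer to the GENCODE start. Which start is used in these livers was not tested. The Apoc2 window held AGGTCA 115 bases before and 43 bases after the start, and 16.3% of promoters held it. The Apoa1 window held none of the 6 motifs as spelled. The shares of promoters with the TATA box, E-box, forkhead and CRE motifs were 13.6%, 7.15%, 3.65% and 7.51%. Entries were found for 8 of the 10 genes. These matches describe the letters in the windows.

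**Figure D1:**
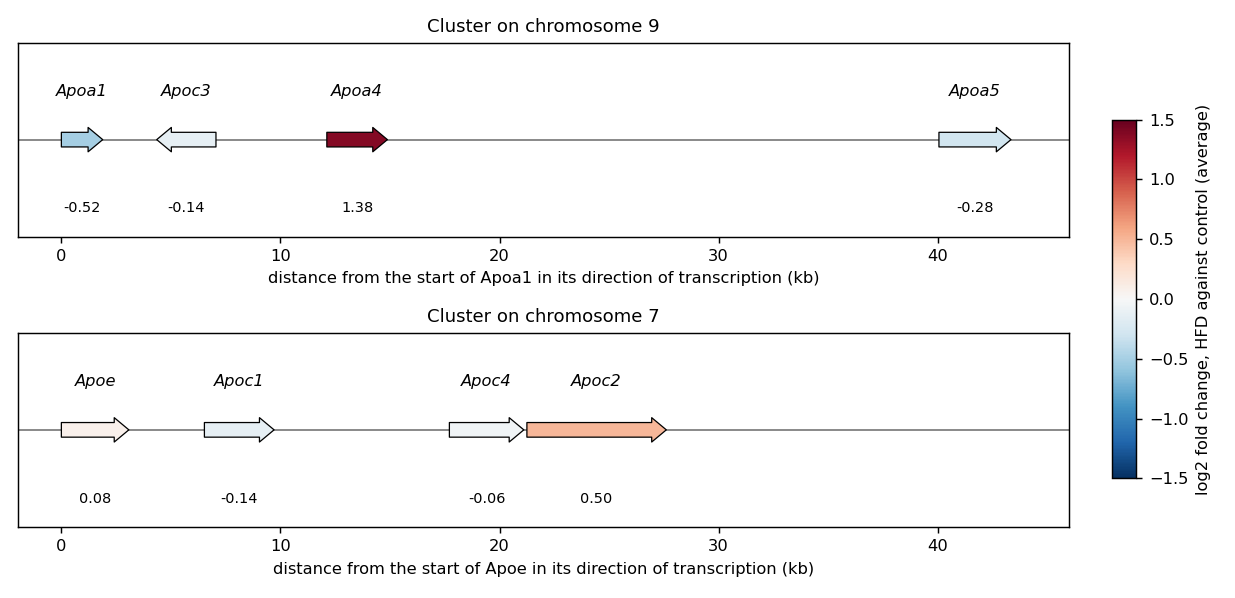
Maps of the clusters on chromosomes 9 and 7, with distance in kb from the start of Apoa1 or Apoe in its direction of transcription. Arrows are genes, and colours and numbers give the log2 fold change, HFD against control diet averaged over both genotypes. Apoa4 (1.38) and Apoa1 (-0.52) differ in sign within one cluster, and Apoc2 (0.50) stands beside Apoc4 (-0.06).

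The 10 genes together took 2.57% to 4.69% of all counts in a library. Per kb of exon, in Control_Rosa26KO, Apoe, the receptor ligand of remnant particles, was the highest at 7957 ± 1558 CPM per kb (SD, n = 6). Apoa2 (7486 ± 2384) and Apoa1 (6963 ± 460), the main proteins of HDL, followed, and the ranges of these neighbours in the order overlapped. Then came Apoc1 (2818 ± 751), Apoc3 (1069 ± 295) and Apoa5 (468 ± 87.1), with ranges that did not overlap the next gene's. Apob (259 ± 54.2), Apoa4 (236 ± 131) and Apoc2 (228 ± 49.9) overlapped, and Mttp was the lowest at 55.3 ± 10.03 CPM per kb. With the longest transcript in place of all exons Apoe came to 12082 CPM per kb, and Apoa1 and Apoa2, and Apoa4 and Apoc2, changed places. Apoa4 was the eighth of the 10 on control diet and the sixth on HFD in both genotypes.

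The genes differed widely in how much they varied. Over the 25 libraries Apoa4 spanned 11.99-fold (SD of log2 CPM 1.06) and Apoa5 5.47-fold (SD 0.57). Apob, the structural protein of VLDL, spanned 1.90-fold and Apoe 1.98-fold. The remaining 6 genes spanned 2.199-fold (Mttp) to 3.54-fold (Apoa2).

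**Figure D2:**
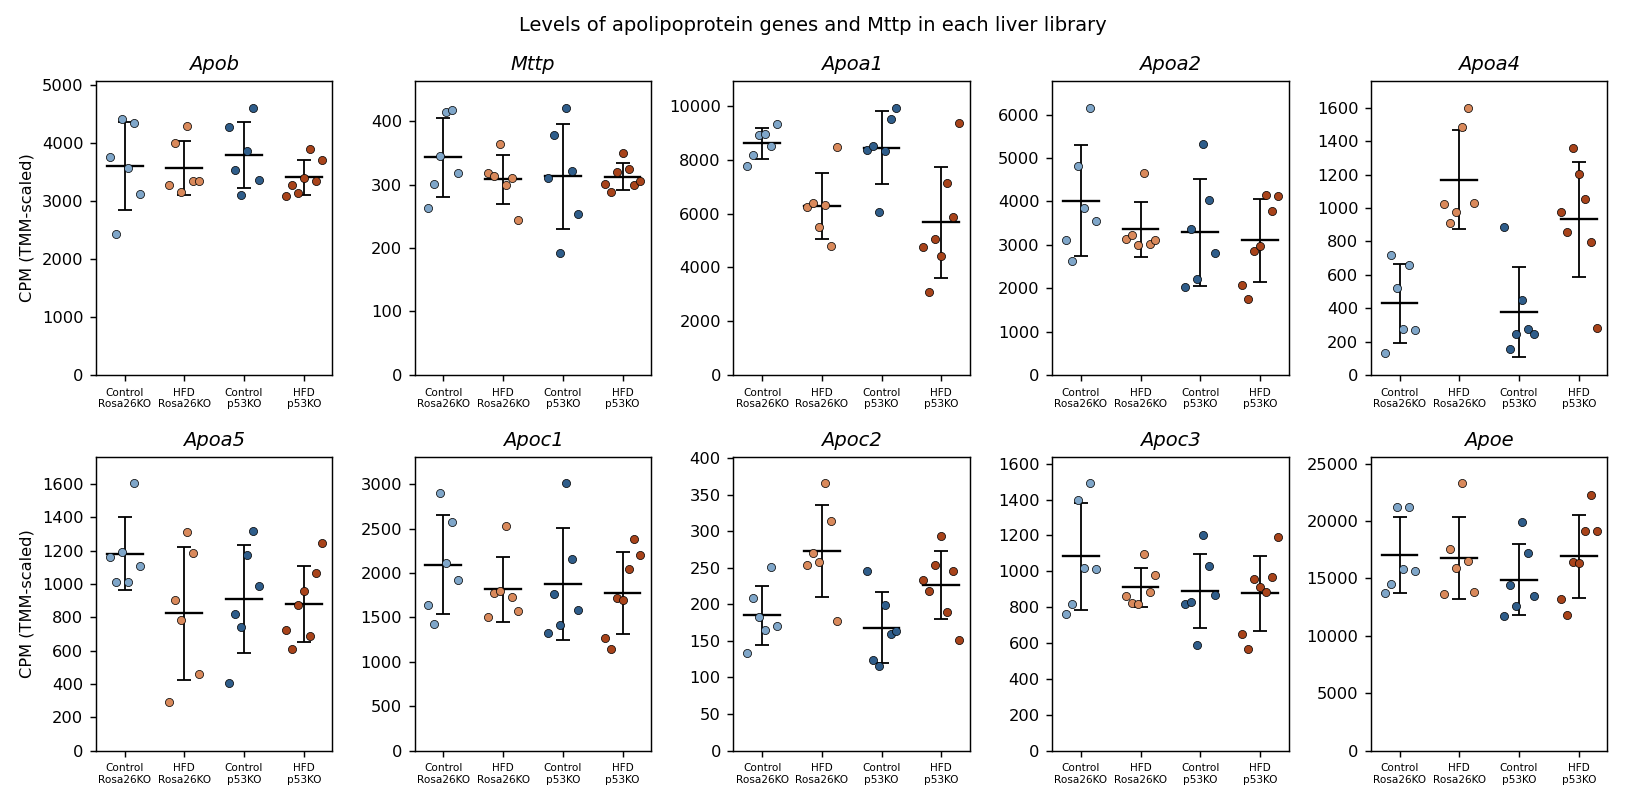
CPM of each gene in each library, by group, on linear axes from 0. Points are libraries, horizontal lines are group means and bars are SD (n = 6, 6, 6 and 7). All 6 HFD_Rosa26KO libraries lie above all 6 Control_Rosa26KO libraries for Apoa4.

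What the diet changed was asked by HFD against control diet within each genotype and averaged over both. On average Apoa4 and Apoc2 rose and Apoa1 fell on HFD, while the genes of VLDL assembly, Apob and Mttp, and the other 5 apolipoproteins did not pass the test. The average comparison called 3 of the 10 genes by edgeR's quasi-likelihood test with Benjamini-Hochberg adjustment, against 9.71% of all genes tested (656 higher, 716 lower). DESeq2 also called 3 of the 10, against 12.8% of all genes, and limma voom 3, against 35.4%. The 10 genes had a median log2 fold change of -0.11, and all genes tested one of -0.01. In these whole-tissue samples, fewer cells of a type and less RNA per cell cannot be told apart.

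Apoa4, an apolipoprotein of triglyceride-rich particles made in mouse liver and intestine, showed the largest change of the 10 genes. It ran from 133 to 716 CPM with a median of 398 in Control_Rosa26KO and from 909 to 1600.3 CPM with a median of 1025 in HFD_Rosa26KO. It ran from 155 to 888 CPM with a median of 261 in Control_p53KO and from 284 to 1357 CPM with a median of 974 in HFD_p53KO. In Rosa26KO the diets did not overlap, and in p53KO 4 of 7 HFD libraries lay above all control libraries. The share of all genes for such overlaps between groups was not computed, here or below. Control_p53KO 1 was far above the other controls of its genotype, and HFD_p53KO 7 lay among the controls. The average log2 fold change was 1.38 (SE 0.29, 2.60-fold, edgeR adjusted p = 0.00392). Within genotypes it was 1.45 (SE 0.41, edgeR adjusted p = 0.0702) in Rosa26KO and 1.31 (SE 0.40, edgeR adjusted p = 0.0733) in p53KO, and neither passed. Two-sided exact permutation tests of log2 CPM gave unadjusted p = 0.00216 in Rosa26KO, p = 0.0128 in p53KO and p = 8.39e-05 for the average permuted within genotype. Without HFD_p53KO 7 the p53KO value was 1.47 (edgeR adjusted p = 0.0281), and without Control_p53KO 1 it was 1.76 (edgeR adjusted p = 0.0175). In Rosa26KO it was 1.65 (edgeR adjusted p = 0.0395) without Control_Rosa26KO 2, and it also passed without Control_p53KO 1 (1.45, edgeR adjusted p = 0.0383) or HFD_p53KO 7 (1.45, edgeR adjusted p = 0.0416). With each library left out in turn, Apoa4 passed in only 3 of 25 fits in Rosa26KO and 2 of 25 in p53KO. The edgeR adjusted p reached 0.149 in each genotype.

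Apoa4 is abundant in enterocytes, so enterocyte markers are given beside it. Of 8 such markers 1 was at 0 in every library and 3, that 1 included, were below 1 CPM throughout. The sum of the 8 ran from 24.0 to 95.4 CPM in Control_Rosa26KO and from 32.3 to 142 CPM in HFD_Rosa26KO. It ran from 15.2 to 124 CPM in Control_p53KO and from 69.6 to 128 CPM in HFD_p53KO. Most of the sum was Fabp2, with group means of 42.3 to 87.3 CPM, followed by Lgals4 at 7.57 to 11.6 CPM. The other markers had group means below 1 CPM. Of the 3 that could be tested, Lgals4, which encodes a galectin, rose on HFD (log2 fold change 0.55, SE 0.14, edgeR adjusted p = 0.0141), while Fabp2 (0.90) and Vil1 (-0.73) did not pass. The part of these genes in the Apoa4 result was not tested.

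Apoa1, the main protein of HDL, fell on HFD. It ran from 7767 to 9330.3 CPM with a median of 8702 in Control_Rosa26KO and from 4794 to 8482 CPM with a median of 6274 in HFD_Rosa26KO. It ran from 6060.4 to 9935 CPM with a median of 8440.4 in Control_p53KO and from 3100.4 to 9374 CPM with a median of 5059 in HFD_p53KO. In Rosa26KO 5 of 6 HFD libraries lay below all control libraries, the exception being HFD_Rosa26KO 6. In p53KO 5 of 7 did, the exceptions being HFD_p53KO 5 and HFD_p53KO 7. The average log2 fold change was -0.52 (SE 0.14, edgeR adjusted p = 0.0207). Within genotypes it was -0.45 (SE 0.20, edgeR adjusted p = 0.245) in Rosa26KO and -0.58 (SE 0.19, edgeR adjusted p = 0.0968) in p53KO. Exact permutation tests gave unadjusted p = 0.00649, p = 0.0198 and, for the average, p = 0.000298. Without HFD_p53KO 7 the p53KO value was -0.74 (edgeR adjusted p = 0.0178). That was the only 1 of 25 fits with a library left out in which Apoa1 passed in p53KO (edgeR adjusted p up to 0.189). In Rosa26KO it passed in 0 of 25.

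Some other abundant hepatocyte genes fell with Apoa1 on HFD, while Apoe (log2 fold change 0.08) and Apob (-0.09) did not pass. All genes tested had a median log2 fold change of -0.01, and 9.71% of them passed for this average. The 7 hepatocyte markers in the table all had average log2 fold changes below 0, and 3 of them fell by edgeR: the serum albumin gene Alb (-0.63, SE 0.18, adjusted p = 0.0306), the urea cycle gene Cps1 (-0.89, SE 0.19, adjusted p = 0.00452) and the antiprotease gene Serpina1a (-0.63, SE 0.19, adjusted p = 0.0345). The sum of the 7 ran from 100283 to 159804 CPM in Control_Rosa26KO and from 60374 to 162767 CPM in HFD_Rosa26KO. It ran from 74072 to 138288 CPM in Control_p53KO and from 52410.2 to 112112 CPM in HFD_p53KO. Most of the sum was Alb, with group means of 53224 to 104175 CPM, so the sum largely follows that gene. The highest HFD libraries in this sum, HFD_Rosa26KO 6 (162767 CPM) and HFD_p53KO 5 (112112 CPM), were also among the exceptions for Apoa1. The HFD library highest in Apoa1, HFD_p53KO 7 (9374 CPM), was not the highest of its group in this sum. The part of these genes in the Apoa1 result was not tested. With each library left out in turn the Alb call held in 17 of 25 fits and the Serpina1a call in 11 of 25, with edgeR adjusted p up to 0.0582 and 0.0656. The Alb call was also lost with no filter on low counts (edgeR adjusted p = 0.0521), with no robust option (0.0505) and without the 4 libraries highest in acute phase genes (0.0503).

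A ratio of counts within a library does not depend on scaling. The Apoa4 count was 1.72% to 8.74% of the Apoa1 count in Control_Rosa26KO (median 4.46%) and 12.1% to 33.4% in HFD_Rosa26KO (median 17.04%). It was 1.82% to 10.6% in Control_p53KO (median 3.48%) and 3.03% to 27.6% in HFD_p53KO (median 20.5%). Both genes were called on these same libraries, so the ratio restates their unequal changes and is no separate support. The low HFD value was again HFD_p53KO 7.

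**Figure D3:**
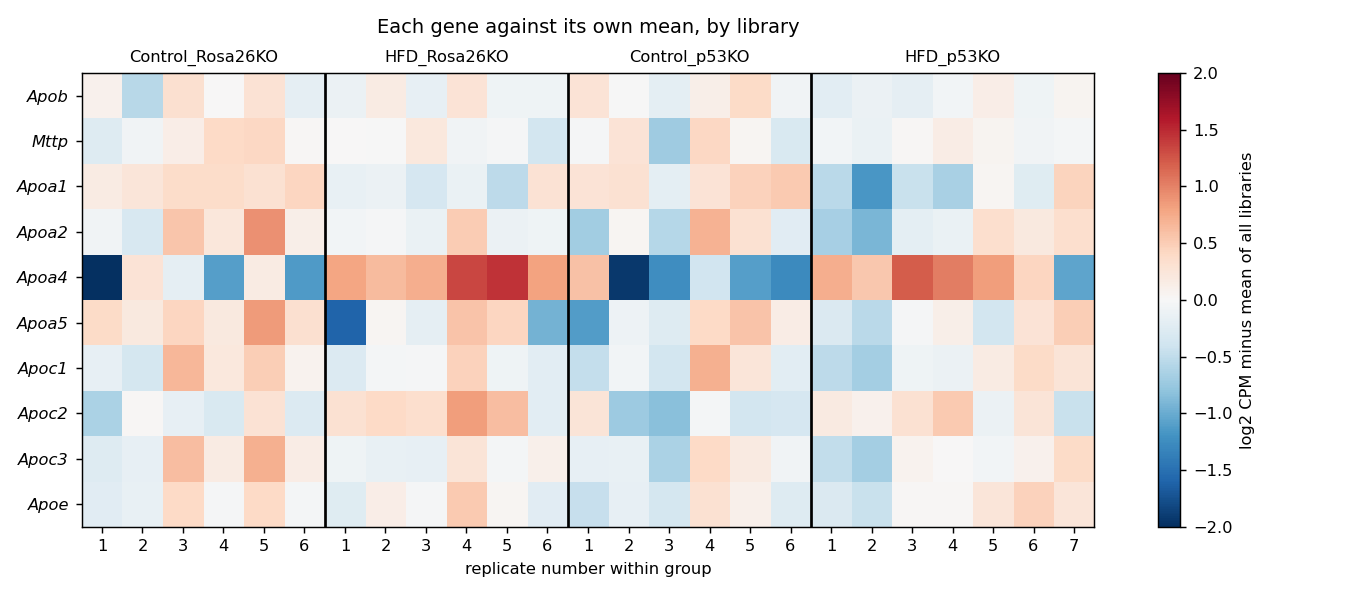
Log2 CPM of each gene minus its mean over all libraries, by library (columns) and gene (rows), from -2 (blue) to 2 (red). Apoa4 is above its mean in all 6 HFD_Rosa26KO libraries and below it in HFD_p53KO 7.

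Apoc2, the cofactor that activates lipoprotein lipase, rose on HFD. It ran from 133 to 251 CPM with a median of 176 in Control_Rosa26KO and from 178 to 365 CPM with a median of 264 in HFD_Rosa26KO. It ran from 115 to 246 CPM with a median of 162 in Control_p53KO and from 151 to 294 CPM with a median of 233 in HFD_p53KO. In Rosa26KO 5 of 6 HFD libraries lay above all controls, the exception being HFD_Rosa26KO 6, and in p53KO 2 of 7 did. The average log2 fold change was 0.50 (SE 0.13, edgeR adjusted p = 0.0204). It was 0.56 (SE 0.19, edgeR adjusted p = 0.132) in Rosa26KO and 0.43 (SE 0.19, edgeR adjusted p = 0.205) in p53KO. Exact permutation tests gave unadjusted p = 0.0173, p = 0.0478 and, for the average, p = 0.00169. The ratio of the Apoc2 count to that of its neighbour Apoc4 ran from 0.2999 to 0.564 (median 0.397) in Control_Rosa26KO and from 0.491 to 0.865 (median 0.686) in HFD_Rosa26KO. It ran from 0.358 to 0.764 (median 0.407) in Control_p53KO and from 0.297 to 0.866 (median 0.744) in HFD_p53KO. The ranges overlapped in both genotypes, HFD_p53KO 7 was the lowest of all 25 libraries, and HFD_p53KO 5 (0.384) and HFD_p53KO 6 (0.4598) lay among the controls. Gm44805 overlaps exons of both neighbours, and Apoc4 itself had a log2 fold change of -0.06.

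The other 7 genes did not pass for the average, with log2 fold changes of -0.28 to 0.08 and edgeR adjusted p of 0.424 to 0.760. Apob (-0.09, SE 0.10) and Mttp (-0.08, SE 0.10), the core of VLDL assembly, had group means of 3406 to 3792 CPM and 308 to 343 CPM. Apoa5, which promotes lipolysis of triglyceride, was at -0.28 (SE 0.20). In Rosa26KO 4 of 6 HFD libraries lay below all controls for Apoa5 (293 to 1310.2 CPM against 1009.8 to 1603 CPM), and in p53KO none did. Apoc3 (-0.14, SE 0.13), an inhibitor of lipolysis, Apoc1 (-0.14, SE 0.15), which hinders remnant uptake, Apoa2 (-0.17, SE 0.18) and Apoe (0.08, SE 0.13) overlapped between diets in both genotypes. Scaling by library size alone, without TMM, raised the median log2 fold change of all genes on HFD by 0.17, to 0.16, and turned the sign of Apob (0.10), Mttp (0.12), Apoc1 (0.04) and Apoc3 (0.04).

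Within single genotypes edgeR called 0 of the 10 genes in Rosa26KO, where 1.51% of all genes passed, and 0 in p53KO, where 2.87% did. In each genotype 3 of the 10 had an unadjusted p under 0.05 by edgeR, against 17.5% of all genes in Rosa26KO and 18.8% in p53KO. DESeq2 called 1 in Rosa26KO (Apoa4), against 4.36% of all genes, and 2 in p53KO (Apoa4 and Apoa1), against 6.43%. The limma voom fit called 3 in each, against 21.5% of all genes in Rosa26KO and 15.5% in p53KO.

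The library names are 1 unbroken sequence of numbers, 1941 to 1965, along which the order of the 4 groups repeats 3 times. No label gives a batch, so the sequence was divided for this comparison where the order starts again, into 1941 to 1948, 1949 to 1956 and 1957 to 1965, called runs here. Apoa4 was higher on HFD in 6 of 6 run and genotype pairings (log2 differences 1.26 to 1.93) and Apoc2 in 6 of 6 (0.20 to 0.85). Apoa1 was lower in 6 of 6 (-1.14 to -0.34). These genes were called on the same libraries that the runs divide, so the shared signs are no separate support. The diets still overlapped for Apoa4 and Apoc2 in p53KO in 1941 to 1948. For Apoc2 they also overlapped in both genotypes in 1957 to 1965. In a model with a mean per group and a term for the 8 libraries of the first run against the later 17, 0 of the 10 genes passed, against 0.538% of all genes, and 5 had an unadjusted p under 0.05, against 20.6% of all genes. The log2 differences of these, later minus earlier, were 0.50 for Apoc1 (edgeR adjusted p = 0.0785), 0.41 for Apoc3, 0.52 for Apoa2, 0.35 for Apoe and 0.53 for Apoa5.

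**Figure D4:**
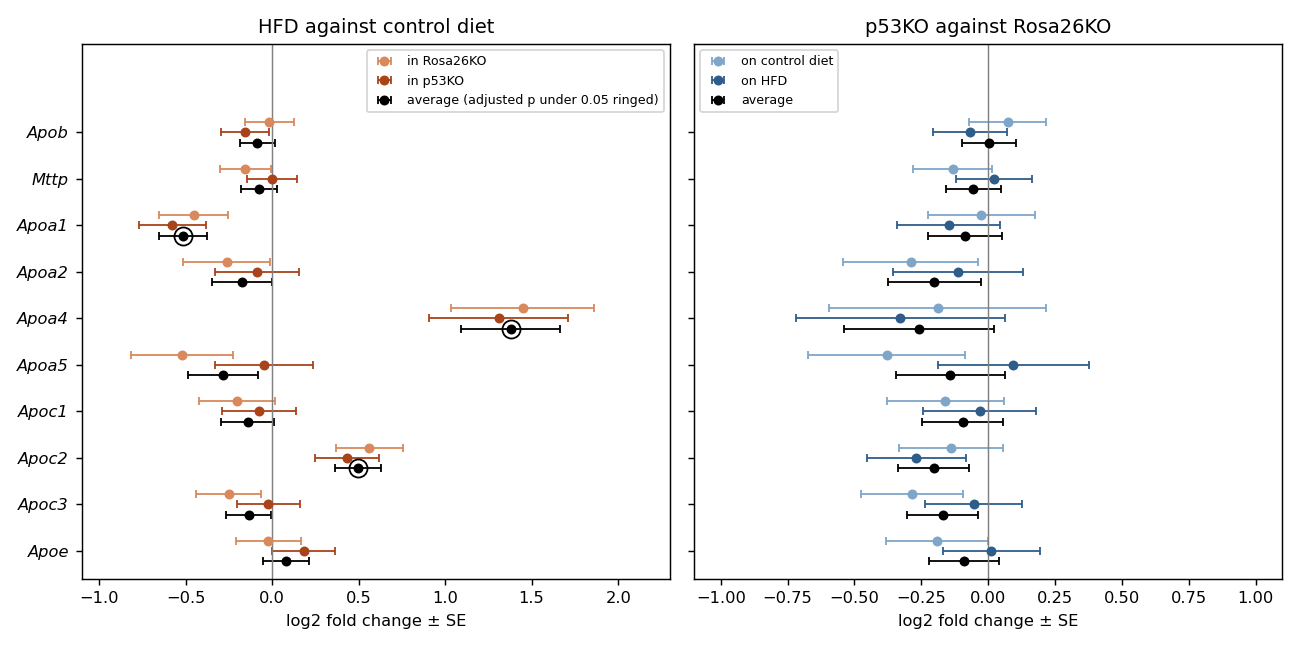
Log2 fold changes ± SE of the 10 genes, HFD against control diet (left) and p53KO against Rosa26KO (right), from edgeR on 25 libraries. Rings mark the 3 averages with an adjusted p under 0.05: Apoa4 at 1.38, Apoc2 at 0.50 and Apoa1 at -0.52.

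What the p53 knockout changed was asked by p53KO against Rosa26KO on each diet. No gene of the 10 passed on control diet, on HFD or for the average by edgeR, where 0% of all genes tested passed in each comparison. DESeq2 called 0 of the 10, against 0.00709% of all genes on each diet and 0.0496% for the average. The limma voom fit called 0 of the 10, against 0% on each diet and 0.0142% for the average. At an unadjusted p under 0.05 edgeR counted 0 of the 10 in each. On control diet the log2 fold changes ran from -0.38 (Apoa5, SE 0.29) to 0.07 (Apob, SE 0.14), with 9 of 10 below 0. On HFD they ran from -0.33 (Apoa4, SE 0.39) to 0.09 (Apoa5, SE 0.28). For the average they ran from -0.26 (Apoa4, SE 0.28) to 0.003 (Apob, SE 0.10), with edgeR adjusted p of 0.966 to 0.998. Each of the 10 genes overlapped between genotypes on both diets, and the share of all genes that did so was not computed.

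Whether the diet response depended on p53 was asked by the interaction, in which the log2 response to HFD of Rosa26KO is subtracted from that of p53KO. By edgeR 0 of the 10 genes passed, with 0 at an unadjusted p under 0.05, and 0% of all genes passed. DESeq2 called 0 of the 10, against 0.0355% of all genes, and limma voom 0, against 0%. The differences were -0.14 (SE 0.56) for Apoa4, -0.12 (SE 0.28) for Apoa1 and -0.13 (SE 0.27) for Apoc2, and the largest was 0.47 (SE 0.41) for Apoa5. The edgeR adjusted p ran from 0.711 to 0.945. The sign for Apoa4 was not stable: without Control_p53KO 1, Control_Rosa26KO 1, HFD_p53KO 2 and HFD_p53KO 7, the 4 highest in acute phase genes, the difference was 0.71 (edgeR adjusted p = 0.806). Control_p53KO 1 (888 CPM) and HFD_p53KO 7 (284 CPM) also lay apart from their groups in Apoa4 itself. Leaving out this set therefore does not isolate the acute phase state.

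The other genes of the pathway were taken from 7 lists of 59 genes, of which 58 were tested. For the diet average 8 of them passed, 1 higher and 7 lower, which is 13.8% against 9.71% of all genes. In Rosa26KO 1 passed (1.72%, against 1.51% of all genes) and in p53KO 3 (5.17%, against 2.87%). In the genotype comparisons and the interaction 0 passed by edgeR, and an unadjusted p under 0.05 was found for 4 on control diet (9.96% of all genes), 3 on HFD (3.6%), 1 for the average (4.05%) and 6 for the interaction (8.64%). The median log2 fold change over the 58 genes was -0.09 for the diet average.

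Among other apolipoproteins Apom, a carrier of sphingosine 1-phosphate in HDL, fell and was the only one of 5 tested to pass. Apom ran from 77.6 to 151 CPM with a median of 125 in Control_Rosa26KO and from 45.8 to 155 CPM with a median of 67.4 in HFD_Rosa26KO. It ran from 89.9 to 188 CPM with a median of 138 in Control_p53KO and from 37.1 to 116 CPM with a median of 43.6 in HFD_p53KO. All but HFD_Rosa26KO 6 and HFD_p53KO 7 among the HFD libraries lay below all controls of their genotype. The average log2 fold change was -0.89 (SE 0.20, edgeR adjusted p = 0.00694).

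Of 14 genes of VLDL assembly and transport 1 passed, Tm6sf2, a membrane protein involved in lipid loading of VLDL, which fell (log2 fold change -0.62, SE 0.18, edgeR adjusted p = 0.0254). None of the 3 genes of Apob mRNA editing and neither of the 2 genes of HDL lipid export passed. Of 10 lipases and their modulators 1 rose and 1 fell. Angptl4, an inhibitor of lipoprotein lipase, rose by 0.98 (SE 0.25, edgeR adjusted p = 0.0161), a call lost without the 4 libraries highest in acute phase genes (0.76, edgeR adjusted p = 0.0692). Pltp, the phospholipid transfer protein, fell (-1.02, SE 0.19, edgeR adjusted p = 0.00167) and its diets did not overlap in Rosa26KO, at 201 to 356 CPM against 105 to 168 CPM. In p53KO they overlapped, and 2 of 7 HFD libraries lay below all controls. Exons of Pltp overlap the antisense gene Ctsa over 495 of 2562 bases.

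Of 7 lipoprotein receptor genes 1 fell, Lrpap1, a chaperone of LDL receptor family members (-0.31, SE 0.09, edgeR adjusted p = 0.0307). Its diets did not overlap in Rosa26KO but did in p53KO, where 0 of 7 HFD libraries lay below all controls. The call was lost when some single libraries were left out (edgeR adjusted p up to 0.0583), which were Control_Rosa26KO 3 or 4, Control_p53KO 2, HFD_p53KO 3 or HFD_Rosa26KO 5. Of 17 regulators 3 fell. Mlxipl, the carbohydrate-responsive factor ChREBP, was at -0.78 (SE 0.16, edgeR adjusted p = 0.00407). The coactivator gene Ppargc1a was at -0.62 (SE 0.17, edgeR adjusted p = 0.0199) and the nuclear receptor gene Rora at -0.33 (SE 0.09, edgeR adjusted p = 0.0218). Lrpap1 and Rora did not pass when libraries were scaled by size alone (-0.13 and -0.14). In Rosa26KO Mlxipl passed (-0.97), and in p53KO Apom (-1.13), Pltp (-1.03) and Rora (-0.45) passed.

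**Figure D5:**
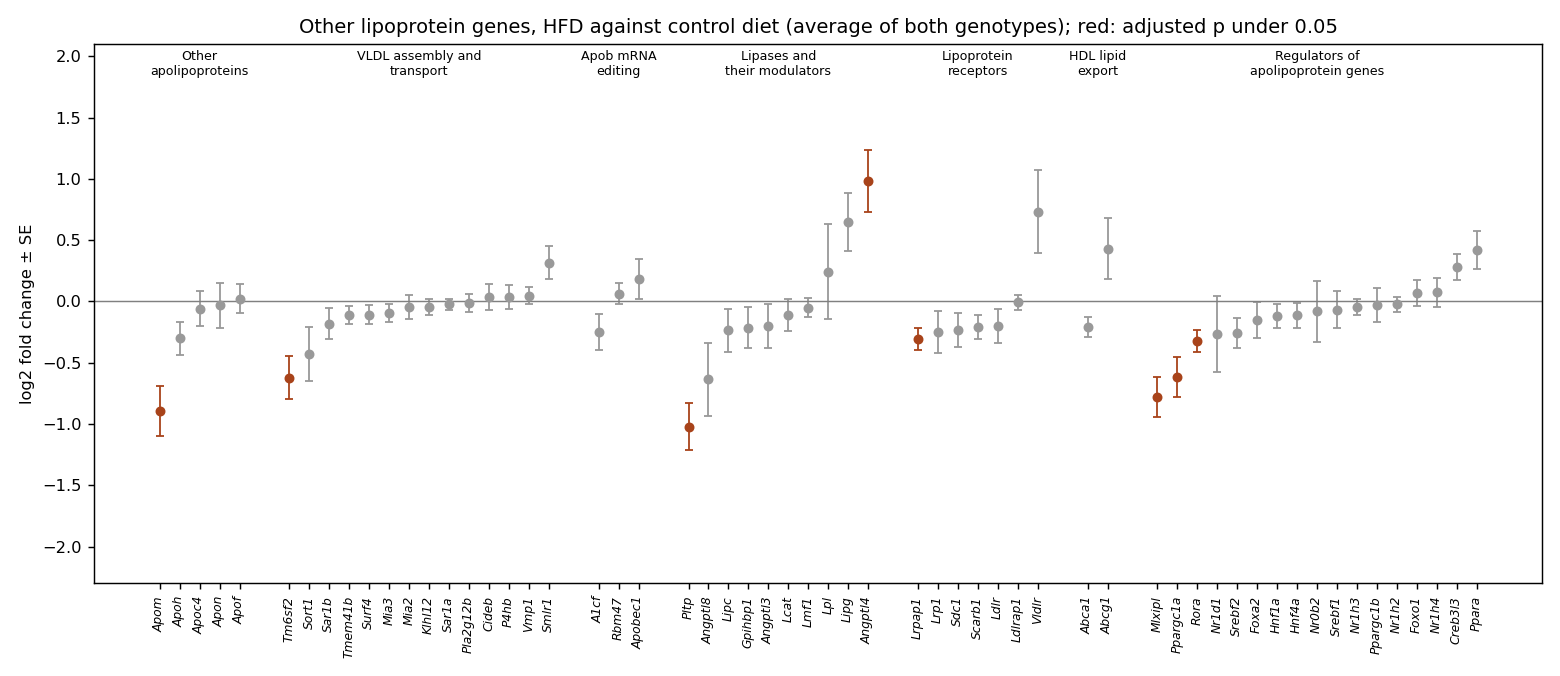
Log2 fold changes ± SE from edgeR, HFD against control diet averaged over both genotypes, for 58 genes in 7 lists. Red marks an adjusted p under 0.05: Angptl4 at 0.98 above 0, and 7 genes from Pltp at -1.02 to Lrpap1 at -0.31 below it.

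The genes whose pattern over the 25 libraries was most like that of Apoa4, by root mean square difference of centred log2 CPM, were Cd36 (0.55), Nt5e (0.58) and Spc25 (0.62), against a median of 1.08 over 12948 genes. Cd36 encodes a fatty acid transporter. In Rosa26KO its mean was 111 ± 33.4 CPM on control diet (SD, n = 6) and 255 ± 71.1 CPM on HFD (SD, n = 6). In p53KO its mean was 131 ± 67.1 CPM on control diet (SD, n = 6) and 244 ± 86.5 CPM on HFD (SD, n = 7). For Apoa5 they were Mnd1 (0.35), Wdr45 (0.36) and Tcea3 (0.36), against a median of 0.62.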

How the data were processed

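Liver polyA RNA of 25 samples was sequenced in 4 groups, with paired reads of 75 bases per the labels' protocols. The deposited values are raw read counts per gene in 1 table of 24537 symbols, per the file headers. The tools STAR and HOMER and the builds GRCm38 and mm10 are named, per the submitters' processing notes. Not given in the sources used here are versions, strand, annotation and the treatment of reads with several matches, so counts of overlapping genes can include each other's reads.

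The filter was filterByExpr of edgeR 4.0.16 (minimum count 10, minimum total 15), libraries were scaled by TMM, and a robust quasi-likelihood model with 1 mean per group was fitted to all 25 libraries. Tests were two-sided, with Benjamini-Hochberg adjustment over 14133 genes in each of 7 comparisons and a threshold of 0.05. The script was first tested on simulated data. CPM are counts relative to the TMM-scaled library total, and log2 CPM used a prior count of 2. Exact permutation tests were two-sided and not adjusted. Lengths and positions came from GENCODE M21, and promoters from RefSeq on GRCm38.p6.

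The 10 genes, the lists and the tests were chosen with earlier results of these data known. A gene of the lists is not reported here and was left out of their counts. Genes were named by rule: all 10 genes, list genes past the threshold, and the 3 genes most alike in pattern to each of the 2 most variable of the 10. Alternatives were other scalings, no filter, no robust option, DESeq2 1.42.0, limma 3.58.1 voom with quality weights, terms for replicate number or run, the compared groups only, and libraries left out. R 4.3.3, Python 3.11.15, numpy 2.4.6, pandas 2.3.3 and matplotlib 3.10.9 were used. Libraries were taken as separate samples. The labels do not tie them to separate animals, so p-values measure only the spread between these samples, which may be technical.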

Additional observations from a re-analysis of the deposited data

Results flagged for a closer look

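A library far from the others of its group was found in 3 of 40 groups of libraries examined for the 10 genes, and chance alone gives about 1 in 20. Apoa2 in HFD_Rosa26KO 4 was at 4647.8 CPM, with the nearest library of its group at 3228 CPM. Apoc1 in the same library was at 2527 CPM, with the nearest at 1799.8 CPM. Apoa5 in Control_Rosa26KO 5 was at 1603 CPM, with the nearest at 1194 CPM. None of these genes passed the test in any comparison.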

How the results depend on the processing

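The diet average called the same number of the 10 genes, 3, under all 11 alternatives and with each of 25 libraries left out, though limma voom called 35.4% of all genes. Over the alternatives the average log2 fold change ran from 1.38 to 1.88 for Apoa4, from -0.73 to -0.37 for Apoa1 and from 0.49 to 0.70 for Apoc2. With single libraries left out it ran from 1.28 to 1.60 (adjusted p 0.000579 to 0.00917), from -0.60 to -0.46 (0.00264 to 0.0405) and from 0.45 to 0.57 (0.00711 to 0.0441). For HFD in Rosa26KO (0 of the 10 genes) 1 passed with DESeq2, with the compared groups only and without the 4 acute-phase-high libraries (Control_p53KO 1, Control_Rosa26KO 1, HFD_p53KO 2 and HFD_p53KO 7), 2 without the 3 neutrophil-high libraries (Control_p53KO 1, Control_p53KO 3 and HFD_Rosa26KO 6) and 3 with limma voom. For HFD in p53KO (0 of the 10) 1 passed with the run term, without the 3 neutrophil-high and without the 4 acute-phase-high libraries, 2 with DESeq2, the replicate block and library size only, and 3 with limma voom. With single libraries left out 0 to 1 passed in Rosa26KO and 0 to 2 in p53KO. Of the libraries called neutrophil-high, Control_p53KO 3 stood apart above in macrophage and Kupffer cell markers (3618 CPM). Leaving out this set therefore does not isolate neutrophils.

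Counts over all genes moved more. In Rosa26KO the 213 genes became 615 with DESeq2, 3038 with limma voom, 549 with the replicate block, 442 with the run term, 653 with the compared groups only and 538 without the neutrophil-high libraries, and 93 (Control_Rosa26KO 4) to 509 (Control_Rosa26KO 2) with the single library named left out. In p53KO the 405 became 907, 2189, 785, 633 and 121 under the same first 5 settings, 1196 with library size only, and 173 (HFD_p53KO 4) to 760 (Control_p53KO 4) with the library named left out. For the diet average the 1372 became 5010 with limma voom, 2282 with the replicate block, 2500 without the neutrophil-high libraries and 2769 with library size only (2455 higher and 314 lower, against 656 and 716), and 1012 to 1883 with single libraries left out. For genotype the 0 genes became 1 on each diet and 7 for the average with DESeq2, and for the average 2 with limma voom, 1 with the replicate block, 1 without the neutrophil-high libraries and 0 to 1 with single libraries left out (1 without Control_p53KO 3). For the interaction DESeq2 called 5.

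Signs turned for Apob (0.0992), Apoc1 (0.0366), Apoc3 (0.0425) and Mttp (0.12) with library size only. The Apoa4 interaction became 0.16 with limma voom, 0.0896 with the replicate block, 0.25 without the neutrophil-high and 0.71 without the acute-phase-high libraries, and -0.35 to 0.32 with single libraries left out. The Apoc2 interaction became 0.00485 with limma voom and 0.19 without the acute-phase-high libraries, and -0.24 to 0.00769 with single libraries left out. The cause of these differences was not tested. Same-numbered libraries had correlated deviations above 0.1 in 1 to 4 of 6 pairs. The correlations ran from -0.40 to 0.58 for genotype on control diet and from -0.27 to 0.41 for genotype on HFD. They ran from -0.03 to 0.18 for HFD in Rosa26KO and from -0.23 to 0.60 for HFD in p53KO. These values do not settle whether replicate numbers pair the samples. The main model had no such block, and the block values are given as alternatives. Library size only, the exact permutation test of the average over genotypes, within-run differences and the contrast of runs were chosen after seeing the data.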
